A study of Mus musculus with 17 samples.

Results

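The Hox genes encode homeodomain transcription factors and lie in 4 clusters. Here 38 of them were followed in whole kidneys of mouse embryos at E12.5, 38 of the 24432 gene IDs for which expression was measured. They were chosen by symbol, from a list of Hox cluster genes in which each symbol matched 1 measured gene. The rule uses no expression value, but the list was chosen with earlier results of these data known. In GRCm38 coordinates the 10 HoxA members lay between 52162417 and 52260880 on chromosome 6, the 10 HoxB members between 96194316 and 96368256 on chromosome 11, the 9 HoxC members between 102921103 and 103036852 on chromosome 15 and the 9 HoxD members between 74668310 and 74765142 on chromosome 2.

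The 3 genotypes were on a mixed strain background and were compared by RNA sequencing of 17 libraries. The 5 libraries called Foxd1-Cre came from Ctnnb1-delta3 c/+;Foxd1 kidneys, in which Cre expressed in the stromal lineage activates 1 allele of Ctnnb1, the gene for beta-catenin. The 3 libraries called Six2-Cre came from Ctnnb1-delta3 c/+;Six2 kidneys, in which the same allele is activated in the nephron progenitor lineage. The other 9 libraries came from Wild-type kidneys. In both mutants beta-catenin is activated in 1 lineage only, while RNA was taken from the whole kidney, so a lower level can come from fewer cells of a type or from less RNA per cell, and these cannot be told apart. The labels do not say whether each library is a separate embryo or litter, so the p-values measure the spread between these libraries.

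Hox genes are numbered by paralog group, from the 3' end of a cluster (group 1) to its 5' end (group 13). Genes at the 3' end are generally switched on earlier and further towards the head than those at the 5' end, and the resulting combinations give cells their position along the body axis. Hox proteins bind DNA together with PBX and MEIS cofactors, and the clusters respond to retinoic acid, to CDX proteins and to Polycomb and Trithorax complexes. In the kidney the group 11 genes Hoxa11, Hoxc11 and Hoxd11 act together in the metanephric mesenchyme, where they are needed for outgrowth of the ureteric bud, and the group 10 genes are needed in the stroma.

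The libraries formed 2 sets that differed in depth. Set 1 comprised all Foxd1-Cre samples plus wild types 1 to 6, with about 28.8 to 37.53 M reads each, estimated from the smallest steps in the values. Set 2 comprised all Six2-Cre samples plus wild types 7 to 9, with about 5.28 to 5.87 M reads each. Mutants were therefore compared within a set only, and low values are less precise in set 2. Values are FPKM (fragments relative to transcript length and to all mapped fragments), which allow levels of different genes to be set side by side. Axin2, a feedback target of beta-catenin signalling, lay at 60.1 to 77.0 FPKM in Foxd1-Cre against 9.57 to 11.01 in wild types of set 1, and at 34.1 to 41.2 FPKM in Six2-Cre against 12.4 to 13.5 in wild types of set 2. Ctnnb1 itself lay at 495 to 527 FPKM in Foxd1-Cre against 402 to 500.2, and at 399.7 to 414 FPKM in Six2-Cre against 327 to 360.4, although gene-level values do not show whether an exon was removed. Nephron progenitor and stromal markers were abundant in all wild types, with Six2 at 70.6 to 125 FPKM and Foxd1 at 66.4 to 109 FPKM.

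A single wild type stood apart. Wild-type replicate 5 had 5312 genes at 0 against 5654 to 5804 in the other 5 wild types of set 1, and was the highest of the 6 for 19 of the 38 Hox genes. Its summed Hox level was 745 FPKM against 661 to 689 FPKM. Its cortical stroma markers summed to 391.5 FPKM against 410.4 to 424, its endothelial markers to 98.1 against 110.5 to 129, and its hindgut and tail markers to 1.58 against 0.818 to 0.898. The part of these differences in its Hox levels was not tested. Values without this library are given for the Foxd1-Cre counts and medians and for some members, but not for the other gene lists.

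In wild-type kidneys paralog group 10 was the most abundant group, with a sum of 186 FPKM in set 1. Groups 12 and 13, at the 5' ends of the clusters, were far lower at 15.9 and 1.76 FPKM. Hoxa10 was the highest of all members at 77.3 ± 3.56 FPKM in set 1 (SD, n = 6) and 74.4 ± 2.21 FPKM in set 2 (SD, n = 3), and Hoxc10 followed at 69.9 ± 6.33 and 65.04 ± 2.46 FPKM. The spreads of these 2 genes overlapped in set 1 but not in set 2. The 3 group 10 genes together made up 27.1% ± 1.45 of the summed Hox FPKM in set 1 and 28.7% ± 0.117 in set 2, and the 3 group 11 genes another 13.1% ± 0.634 and 12.4% ± 0.266.

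Within HoxA, Hoxa11 came second with 42.1 ± 3.66 FPKM in set 1 and 29.9 ± 1.82 in set 2. In HoxD the 2 highest genes were Hoxd11 (40.1 ± 2.24 and 44.3 ± 2.30 FPKM) and Hoxd10 (39 ± 3.27 and 45.9 ± 5.02 FPKM), which did not differ beyond their spread in either set. In HoxB 6 members (Hoxb2, Hoxb3, Hoxb6, Hoxb7, Hoxb8 and Hoxb9) had similar set 1 means, between 27.6 FPKM for Hoxb3 and 32.4 FPKM for Hoxb7. Hoxb4 and Hoxb5, which lie between Hoxb3 and Hoxb6, were lower at 6.44 ± 1.47 and 14.3 ± 0.879 FPKM, as were Hoxb1 and Hoxb13. Hoxb7 was at 32.4 ± 0.972 and 27.9 ± 3.38 FPKM and Hoxb9 at 29.5 ± 2.51 and 22.7 ± 1.70 FPKM. In HoxC, Hoxc10 stood far above the next member, Hoxc6, at 11.8 ± 1.22 and 16.01 ± 0.683 FPKM. Hoxc4 and Hoxc9 followed at 11.4 ± 1.119 and 11.3 ± 0.316 FPKM in set 1, within the spread of Hoxc6.

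The lowest members were Hoxb13, Hoxc12 and Hoxc13. They did not pass the filter of 1 FPKM in at least 3 libraries, and their highest values in any of the 17 libraries were 0.149, 0.0509 and 0.0753 FPKM. The group 13 genes Hoxa13 and Hoxd13 passed it but averaged only 0.480 ± 0.479 and 1.26 ± 0.781 FPKM in set 1, and the group 1 genes Hoxb1 and Hoxd1 averaged 1.87 ± 0.793 and 2.38 ± 0.242 FPKM. Of the 38 members, 35 were tested in each comparison.

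**Figure D1:**
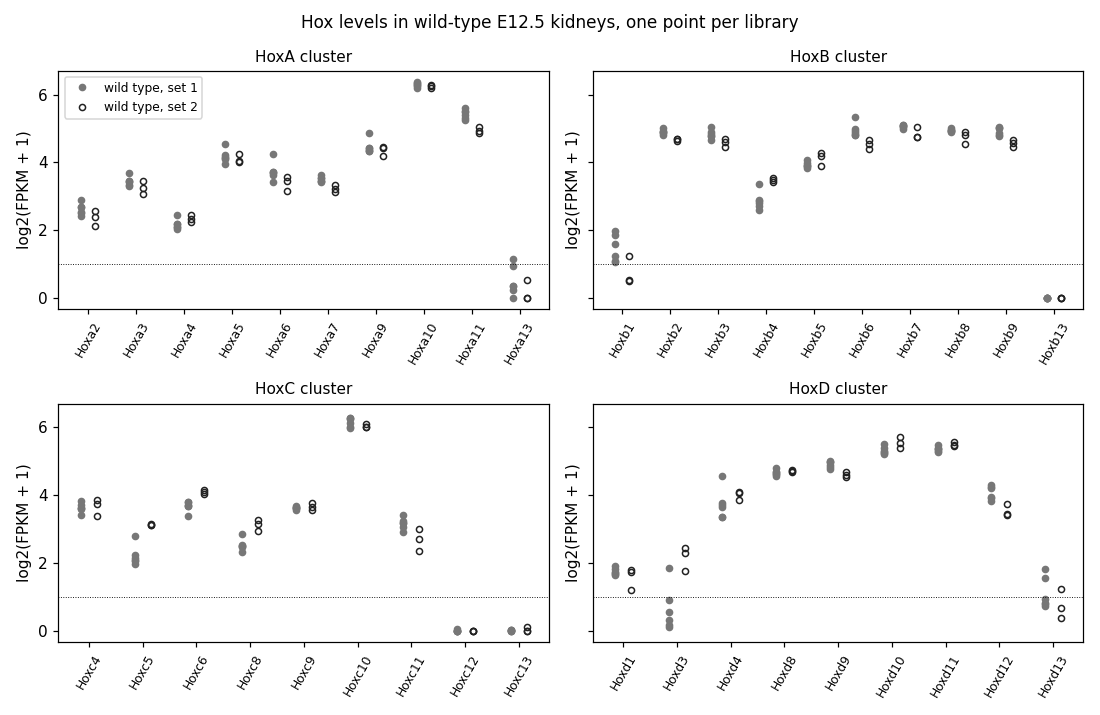
Level of each Hox gene in every wild-type library, as log2(FPKM + 1), by cluster and in order of paralog group; filled points are set 1 (n = 6), open points set 2 (n = 3), and the dotted line marks 1 FPKM. Hoxa10 and Hoxc10 stand highest and Hoxb13, Hoxc12 and Hoxc13 lie near 0.

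Promoter windows of RefSeq (GRCm38.p6), 250 bases before to 50 bases after the start of transcription, were matched by symbol for 22 of the 38 members, with 24 windows in all. They were searched on both strands for letters that TCF/LEF factors, the DNA-binding partners of beta-catenin, recognise (CTTTGAA or CTTTGAT), for a MEIS core (TGACAG) and for a PBX-HOX pair (TGATTNAT). The TCF/LEF letters were found for Hoxa11, Hoxd8 and Hoxd12, in 3 of 24 windows against 8.65% of all 32851 windows in the table. The MEIS core was found for Hoxa2 and Hoxa3 (19.2% of all windows) and the PBX-HOX pair for Hoxa2 and Hoxd11 (3.22% of all windows). A match is a description of the letters and not evidence of binding, and these short windows leave out distant enhancers. Shown here are the windows of 4 genes whose levels the results turn on: Hoxa2 and Hoxa5 from the 3' part of HoxA, Hoxa11 from its 5' part, and Hoxb8. Capitals mark the PBX-HOX pair (first) and the MEIS core (second) of Hoxa2 and the TCF/LEF match of Hoxa11, the PBX-HOX and TCF/LEF letters being read on the opposite strand. The windows of Hoxa5 and Hoxb8 held none of the 3 motifs and have no capitals. In the order shown, the windows lie at chr6:52164782-52165081 (minus strand), chr6:52204538-52204837 (minus), chr6:52245761-52246060 (minus) and chr11:96281655-96281954 (plus).
Hoxa2: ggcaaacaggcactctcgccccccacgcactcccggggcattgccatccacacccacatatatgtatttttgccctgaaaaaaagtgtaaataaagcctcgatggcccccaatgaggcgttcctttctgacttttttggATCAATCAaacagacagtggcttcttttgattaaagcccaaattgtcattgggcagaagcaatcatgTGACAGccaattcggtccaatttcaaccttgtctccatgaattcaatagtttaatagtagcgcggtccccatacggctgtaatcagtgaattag
Hoxa5: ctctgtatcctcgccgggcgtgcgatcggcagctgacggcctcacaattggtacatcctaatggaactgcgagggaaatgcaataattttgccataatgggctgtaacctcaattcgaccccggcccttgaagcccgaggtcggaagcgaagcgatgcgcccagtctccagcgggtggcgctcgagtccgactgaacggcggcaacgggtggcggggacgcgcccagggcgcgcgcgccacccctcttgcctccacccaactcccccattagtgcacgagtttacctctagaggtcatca
Hoxa11: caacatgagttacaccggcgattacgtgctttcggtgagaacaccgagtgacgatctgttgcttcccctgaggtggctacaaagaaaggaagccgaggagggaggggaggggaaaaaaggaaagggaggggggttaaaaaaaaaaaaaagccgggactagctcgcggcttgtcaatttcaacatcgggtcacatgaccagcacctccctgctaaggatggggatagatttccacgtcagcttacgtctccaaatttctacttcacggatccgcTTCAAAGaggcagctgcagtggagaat
Hoxb8: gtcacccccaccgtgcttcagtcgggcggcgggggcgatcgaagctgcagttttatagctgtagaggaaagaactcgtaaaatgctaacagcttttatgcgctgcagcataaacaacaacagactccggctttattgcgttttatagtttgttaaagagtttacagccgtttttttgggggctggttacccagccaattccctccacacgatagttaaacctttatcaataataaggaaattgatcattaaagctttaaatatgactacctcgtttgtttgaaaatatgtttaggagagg

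With beta-catenin activated in the stroma, Hox levels were moderately lower in the HoxA, HoxB and HoxC clusters. Of 35 tested members 12 fell (34.3%), where 4.82% of all genes tested fell, and 0 rose, where 8.45% of all genes rose. Calls are an adjusted p under 0.05 in limma on log2(FPKM + 1) with Benjamini-Hochberg adjustment over 13996 genes, and at an unadjusted p under 0.05 the counts were 18 down and 1 up. Changes are on that log2 scale throughout, which understates the change of genes near or below 1 FPKM. The 12 that fell comprised 5 of 10 HoxA members (Hoxa2, Hoxa3, Hoxa4, Hoxa5 and Hoxa7), 4 of 9 tested HoxB members (Hoxb2, Hoxb5, Hoxb7 and Hoxb8), 3 of 7 tested HoxC members (Hoxc4, Hoxc10 and Hoxc11) and 0 of 9 HoxD members. The median log2 change was -0.18 over the 35 members, -0.23 in HoxA, -0.20 in HoxB, -0.26 in HoxC and 0.10 in HoxD, beside -0.008 over all genes tested. The signs of the Hox medians held under all 3 rescalings of the libraries, while the median over all genes became 0.022 after rescaling to the same total, 0.02 after rescaling without erythroid genes and -0.015 after rescaling by the median ratio. For 10 members every Foxd1-Cre library lay below every wild type of set 1, a pattern that 3.80% of all genes showed, and no member showed the reverse, which 6.89% of all genes did. Without wild-type replicate 5, 13 members fell, 11 of them among the 12, Hoxd10 rose, and the median was -0.13 over the members, -0.18 in HoxA, -0.17 in HoxB, -0.20 in HoxC and 0.07 in HoxD.

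In HoxA the 3' genes Hoxa2 to Hoxa5 fell together. Hoxa2, which patterns the hindbrain and the branchial arches, was at 3.19, 3.74, 3.25, 3.72 and 3.39 FPKM in the 5 Foxd1-Cre libraries and 4.33 to 6.40 (median 5.11) FPKM in the 6 wild types. The groups did not overlap, and the change of -0.47 ± 0.08 (SE) was the largest fall of any member (limma, adjusted p = 0.00201). Hoxa4 was at 2.24, 2.72, 2.29, 2.37 and 2.27 FPKM against 3.10 to 4.44 (median 3.38) FPKM, again without overlap, a change of -0.41 ± 0.07 (limma, adjusted p = 0.00251). Without wild-type replicate 5 the changes were -0.41 for Hoxa2 and -0.36 for Hoxa4 (limma, adjusted p = 0.00147 and 9.3e-04).

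Hoxa5, which is needed for the lung and the axial skeleton, was at 13.4, 13.8, 12.8, 13.5 and 14.5 FPKM against 14.6 to 22.4 (median 16.6) FPKM. Every Foxd1-Cre library lay below every wild type, the nearest pair being 14.5 and 14.6 FPKM, with a change of -0.32 ± 0.09 (limma, adjusted p = 0.0309) that was -0.24 without wild-type replicate 5. Hoxa3 was at 8.35, 8.74, 8.42, 7.84 and 7.85 FPKM against 8.86 to 11.8 (median 9.87) FPKM, without overlap, a change of -0.24 ± 0.06 (limma, adjusted p = 0.0295) that was -0.19 without wild-type replicate 5. The Hoxa5 call ended on leaving out any of libraries 1, 2, 3 and 4 of Foxd1-Cre, or any of libraries 2 and 4 of the wild types (adjusted p up to 0.0802). The Hoxa3 call ended on leaving out any of libraries 1, 3, 4 and 5 of Foxd1-Cre, or any of libraries 3 and 4 of the wild types (adjusted p up to 0.078), both by limma.

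Hoxa7 was at 8.32, 9.29, 9.01, 7.96 and 9.15 FPKM against 9.71 to 11.3 (median 10.2) FPKM, with no overlap and a change of -0.22 ± 0.05 (limma, adjusted p = 0.0141). The Hoxa7 call ended with the replicate number as a block in the fit (limma, adjusted p = 0.0571). It also ended with all 9 wild types as controls (limma, adjusted p = 0.339). Hoxaas3 on the other strand covers 20.4% of the Hoxa7 exon bases, and antisense genes cover 25.4% of those of Hoxa3, 16% of those of Hoxa4, 27.3% of those of Hoxb2 and 52.9% of those of Hoxb3. The sources used here do not state whether reads were counted by strand, so reads of such pairs may be mixed. Hoxa6 (-0.23 ± 0.12, adjusted p = 0.284) and Hoxa9 (-0.25 ± 0.09, adjusted p = 0.0809) did not pass limma's test, although all 5 Foxd1-Cre values of Hoxa9 (17.7, 17.8, 17.6, 17.6 and 16.9 FPKM) lay below the 6 wild types (19.2 to 28.4 FPKM, median 20.2). Without wild-type replicate 5, the highest of these, Hoxa9 fell by 0.17 (limma, adjusted p = 0.00348). The abundant 5' genes were close to their wild-type levels: Hoxa10 was at 70.7, 76.5, 78.9, 76.3 and 72.3 FPKM against 72.1 to 82.3 (median 77.6) FPKM, a change of -0.04 ± 0.04, and Hoxa11 at 41.5, 46.1, 45.4, 42.05 and 41.4 FPKM against 37.3 to 47.1 (median 42.5) FPKM, a change of 0.04 ± 0.06. In both the ranges overlapped, and the adjusted p values were 0.557 and 0.718 (limma). Hoxa13 changed by 0.23 ± 0.23 at its low level (limma, adjusted p = 0.61).

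All 7 tested HoxC genes were lower on average, and 3 of them passed the test. Hoxc4 was at 8.40, 9.35, 7.56, 8.02 and 8.31 FPKM in Foxd1-Cre and 9.70 to 13.1 (median 11.4) FPKM in wild types, with no overlap and a change of -0.41 ± 0.07 (limma, adjusted p = 0.00172). Hoxc10, the most abundant HoxC gene, was at 51.01, 57.4, 56.5, 60.3 and 51.96 FPKM against 61.98 to 75.98 (median 71.4) FPKM. Its highest mutant value lay under its lowest wild-type value, and it fell by 0.33 ± 0.07 on the log2 scale (limma, adjusted p = 0.00598): the mean went from 69.9 to 55.4 FPKM. Hoxc11, a group 11 gene of the kidney mesenchyme, was at 6.13, 7.06, 5.35, 5.48 and 6.17 FPKM against 6.57 to 9.60 (median 8.05) FPKM, overlapping in 1 pair of libraries, and changed by -0.35 ± 0.09 (limma, adjusted p = 0.0198). Leaving out Foxd1-Cre replicate 3 or replicate 4 ended the Hoxc11 call (limma, adjusted p = 0.0579 and 0.0529). The other HoxC genes changed by -0.26 ± 0.09 (Hoxc8), -0.18 ± 0.13 (Hoxc5), -0.18 ± 0.08 (Hoxc6) and -0.12 ± 0.05 (Hoxc9), with adjusted p from 0.067 to 0.457 in limma. Hoxc8 passed without wild-type replicate 5 or replicate 3, Hoxc6 without wild-type replicate 1 and Hoxc9 without Foxd1-Cre replicate 4.

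In HoxB the 4 falls lay between 0.18 and 0.31 on the log2 scale. Hoxb5 was at 12.7, 11.4, 10.3, 10.8 and 11.7 FPKM in Foxd1-Cre and 13.2 to 15.7 (median 14.1) FPKM in wild types, without overlap, a change of -0.31 ± 0.06 (limma, adjusted p = 0.00304). Hoxb7, which is known in the kidney for the ureteric bud activity of its promoter, was at 29.2, 27.98, 27.4, 28.6 and 26.9 FPKM against 30.6 to 33.2 (median 32.6) FPKM. The groups did not overlap and the libraries within each were close, and the change of -0.20 ± 0.03 had the smallest p of all members (limma, adjusted p = 8.6e-04). Hoxb2 was at 25.7, 21.4, 25.2, 26.99 and 24.6 FPKM against 26.8 to 31.6 (median 28.8) FPKM, a change of -0.22 ± 0.06 (limma, adjusted p = 0.0243), with 1 Foxd1-Cre library above the lowest wild type. The fall of Hoxb8 from 29.8 ± 0.763 to 26.3 ± 2.22 FPKM, a change of -0.18 ± 0.05 (limma, adjusted p = 0.0335), was lost when the libraries were rescaled to the same total (adjusted p = 0.188), and on leaving out any of libraries 2, 3 and 4 of Foxd1-Cre, or any of libraries 1, 3, 4, 5 and 6 of the wild types (adjusted p up to 0.0819). The Hoxb2 call ended after the same rescaling (limma, adjusted p = 0.0553), and on leaving out library 5 of Foxd1-Cre (adjusted p up to 0.0566). The other HoxB members changed by -0.24 ± 0.09 (Hoxb6), -0.20 ± 0.11 (Hoxb4), -0.17 ± 0.06 (Hoxb3), -0.12 ± 0.18 (Hoxb1) and 0.01 ± 0.08 (Hoxb9) and were not called.

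No HoxD gene was called in Foxd1-Cre. Hoxd10 was at 43.05, 40.7, 42.5, 45.4 and 44.3 FPKM in Foxd1-Cre and 35.9 to 44.7 (median 37.9) FPKM in wild types, with overlap, a change of 0.15 ± 0.05 (limma, adjusted p = 0.108). Without wild-type replicate 5 (0.19, limma, adjusted p = 0.0112), after rescaling to the same total (0.18, adjusted p = 0.0159) and after rescaling without erythroid genes (0.18, adjusted p = 0.0186) it passed as a rise. Hoxd11 was at 42.6, 41.8, 41.9, 40.1 and 41.6 FPKM against 37.8 to 43.9 (median 39.99) FPKM, a change of 0.05 ± 0.04. Hoxd8, Hoxd9, Hoxd12 and Hoxd1 changed by -0.05 ± 0.05, 0.10 ± 0.04, 0.12 ± 0.10 and 0.02 ± 0.07, and none of them was called (limma, adjusted p from 0.199 to 0.909). Hoxd3 (0.51 ± 0.38) and Hoxd4 (-0.19 ± 0.19) share 62.3% and 52.3% of their exon bases with each other or with Gm28230, a gene on the same strand that overlaps both, so their reads may have been split and their levels are uncertain. Summed, Hoxd3 and Hoxd4 changed by -0.09 ± 0.19 in Foxd1-Cre and -0.16 ± 0.07 in Six2-Cre (limma, adjusted p = 0.819 and 0.199). Hoxd13 changed by 0.11 ± 0.27.

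With beta-catenin activated in nephron progenitors, the direction differed between clusters. Of 35 tested members 4 rose (11.4%, where 7.93% of all genes tested rose) and 6 fell (17.1%, where 5.84% fell), by limma with Benjamini-Hochberg adjustment over 13828 genes. The 4 that rose were Hoxa5, Hoxc4, Hoxc6 and Hoxc10. The 6 that fell were Hoxa10, Hoxa11, Hoxb2, Hoxb5, Hoxb6 and Hoxb8. The log2 change was positive for 7 of 7 tested HoxC genes (median 0.33) and for the 5 HoxA genes of paralog groups 2 to 6 (median 0.42), and negative for 9 of 9 tested HoxB genes (median -0.31), of which 1 turned positive when libraries were rescaled to the same total. The cut of HoxA after group 6 was not planned and lies where the signs first change, so it is descriptive only. HoxD had a median of 0.16 with 0 of 9 called, and the median over all genes tested was -0.009. In 10 members all Six2-Cre libraries lay above all wild types of set 2, and in 10 they lay below, but 18% and 17.7% of all genes did so in these small groups. With 3 libraries on each side, each of the 10 calls was lost on leaving out at least 1 library, and the signs held.

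The largest rise among the called genes was that of Hoxc4. It was at 17.1, 18.4 and 18.4 FPKM in the 3 Six2-Cre libraries and 9.44, 12.4 and 13.5 FPKM in the 3 wild types of set 2, with no overlap and a change of 0.58 ± 0.13 (limma, adjusted p = 0.0326). Hoxc6 was at 22.2, 19.97 and 24.7 FPKM against 15.3, 16.01 and 16.7 FPKM, also without overlap, and rose by 0.45 ± 0.09 (limma, adjusted p = 0.0209). Hoxc10 was at 74.2, 72.7 and 76.2 FPKM against 63.9, 67.9 and 63.4 FPKM. Both groups were tight, and its rise of 0.19 ± 0.04 was the smallest that passed (limma, adjusted p = 0.0354). The Hoxc4 call ended on leaving out any of libraries 1, 2 and 3 of Six2-Cre, or library 8 of the wild types (adjusted p up to 0.103), that of Hoxc6 on leaving out any of libraries 1 and 3 of Six2-Cre, or any of libraries 7 and 8 of the wild types (adjusted p up to 0.0677) and that of Hoxc10 on leaving out any of libraries 1, 2 and 3 of Six2-Cre, or any of libraries 7 and 9 of the wild types (adjusted p up to 0.121), by limma. The Hoxc10 call also ended with no variance trend (adjusted p = 0.0796) and with all 9 wild types as controls (adjusted p = 0.153). Not called, with higher means, were Hoxc11 (0.34 ± 0.18), Hoxc9 (0.33 ± 0.10), Hoxc8 (0.27 ± 0.12) and Hoxc5 (0.13 ± 0.07), with adjusted p from 0.0827 to 0.268 in limma. Hoxc6 in Foxd1-Cre, at 10.03, 9.74, 9.55, 12.2 and 9.86 FPKM against 9.53 to 12.9 (median 11.98) FPKM, overlapped its wild types. The cluster as a whole went from 19.5% ± 0.880 of the summed Hox FPKM in wild types of set 2 to 23.99% ± 0.578 in Six2-Cre, and from 17.6% ± 1.10 in wild types of set 1 to 15.5% ± 0.869 in Foxd1-Cre.

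In HoxA the signs under Six2-Cre differed between a 3' and a 5' part. Because the cut follows the signs, the counts on each side of it are not a test of a split. Hoxa5 was at 20.1, 23.1 and 23.03 FPKM in Six2-Cre and 15, 18.1 and 15.6 FPKM in wild types, all mutants above all wild types, and rose by 0.42 ± 0.09 (limma, adjusted p = 0.0313). Its neighbours Hoxa2 (6.17, 5.08 and 6.71 against 4.20, 4.91 and 3.37 FPKM) and Hoxa6 (14.2, 12.7 and 18.98 against 7.93, 10.9 and 10.02 FPKM) were also higher in all 3 mutant libraries, but with wider spreads. Their changes of 0.44 ± 0.15 and 0.61 ± 0.17 did not pass limma's test (adjusted p = 0.103 and 0.0677), nor did those of Hoxa4 (0.26 ± 0.12) and Hoxa3 (0.19 ± 0.11). The Hoxa5 call ended on leaving out any of libraries 2 and 3 of Six2-Cre, or any of libraries 7 and 9 of the wild types (adjusted p up to 0.105), by limma.

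Of the 5 HoxA genes of groups 7 to 13, 4 had negative changes (median -0.26) and 2 of them fell. Hoxa10, the most abundant Hox gene of the wild types, was at 63.4, 57.3 and 61.8 FPKM against 76.6, 74.4 and 72.1 FPKM, with no overlap, and fell by 0.29 ± 0.05 (limma, adjusted p = 0.0172). Hoxa11, one of the group 11 genes of the metanephric mesenchyme, was at 23.3, 25.7 and 22.5 FPKM against 29.6, 31.8 and 28.2 FPKM, again with no overlap, and fell by 0.32 ± 0.07 (limma, adjusted p = 0.034). Exons of Hoxa11os on the other strand cover 35.0% of the Hoxa11 exon bases, so part of its reads may come from that gene. Hoxa11os itself changed by -0.12 ± 0.13 (limma, adjusted p = 0.567). Hoxa7 and Hoxa9 changed by -0.26 ± 0.09 and -0.20 ± 0.09 and were not called (limma, adjusted p = 0.131 and 0.197), and Hoxa13 changed by 0.47 ± 0.33. The Hoxa10 call ended on leaving out library 3 of Six2-Cre, or any of libraries 7 and 8 of the wild types (adjusted p up to 0.0598) and that of Hoxa11 on leaving out any of libraries 1 and 3 of Six2-Cre, or any of libraries 7 and 8 of the wild types (adjusted p up to 0.108), by limma. With no variance trend the Hoxa11 call ended too (adjusted p = 0.0508).

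In HoxB, Hoxb8 had the largest change of any Hox gene under Six2-Cre. It was at 13.02, 16.7 and 16.1 FPKM in Six2-Cre against 28.6, 26.9 and 22.2 FPKM in wild types, no mutant library reaching the lowest wild type, and fell by 0.73 ± 0.13 on the log2 scale, to 58.8% of the wild-type mean (limma, adjusted p = 0.0155). Hoxb5 was at 11.8, 12.3 and 11.5 FPKM against 13.9, 18.3 and 17.2 FPKM and fell by 0.43 ± 0.10 (limma, adjusted p = 0.0441). This call ended under 4 other settings, with adjusted p up to 0.0619. Hoxb2 was at 17.6, 20.1 and 17.7 FPKM against 24.8, 24.98 and 23.7 FPKM, a fall by 0.39 ± 0.06 (adjusted p = 0.0135), and Hoxb6 at 16.02, 15.98 and 17.8 against 22.2, 24.2 and 19.9 FPKM, a fall by 0.39 ± 0.09 (adjusted p = 0.0324, limma). None of these 3 groups overlapped their wild types. Hoxb7 (20.8, 22.5 and 23.2 against 31.8, 25.9 and 25.9 FPKM, a change of -0.31 ± 0.09) and Hoxb3 (-0.18 ± 0.07) did not overlap either but were not called (limma, adjusted p = 0.0776 and 0.16), and Hoxb9 was at 21.1, 23.8 and 22.4 against 24.4, 22.8 and 21.02 FPKM, a change of -0.02 ± 0.07. Hoxb4 changed by -0.05 ± 0.07 and Hoxb1 by -0.26 ± 0.24. By limma, the Hoxb8 call ended on leaving out any of libraries 7 and 8 of the wild types (adjusted p up to 0.0577), that of Hoxb2 on leaving out library 3 of Six2-Cre, or library 8 of the wild types (adjusted p up to 0.0554). The Hoxb5 call ended on leaving out any of libraries 1, 2 and 3 of Six2-Cre, or any of libraries 8 and 9 of the wild types (adjusted p up to 0.131) and that of Hoxb6 on leaving out any of libraries 1, 2 and 3 of Six2-Cre, or any of libraries 7 and 8 of the wild types (adjusted p up to 0.102), by limma. The HoxB share of the summed Hox FPKM was 21.3% ± 0.899 in Six2-Cre and 26.9% ± 1.143 in its wild types.

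The HoxD genes were not called under Six2-Cre. Hoxd10 was at 49.1, 48.2 and 51.9 FPKM against 41.3, 51.2 and 45.02 FPKM and Hoxd11 at 45.1, 47 and 50.7 FPKM against 42.3, 46.8 and 43.9 FPKM, both overlapping, with changes of 0.12 ± 0.08 and 0.10 ± 0.06. Hoxd9 (0.19 ± 0.06) and Hoxd8 (0.23 ± 0.08) were higher in all 3 mutants without passing (limma, adjusted p = 0.0766 and 0.123), and Hoxd9 passed after rescaling to the same total (0.23, adjusted p = 0.0374). Hoxd4 lay below its wild types in all 3 libraries, with a change of -0.24 ± 0.08 (limma, adjusted p = 0.0921). Hoxd1, Hoxd3, Hoxd12 and Hoxd13 changed by -0.19 ± 0.20, 0.17 ± 0.18, 0.16 ± 0.10 and 0.28 ± 0.23.

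**Figure D2:**
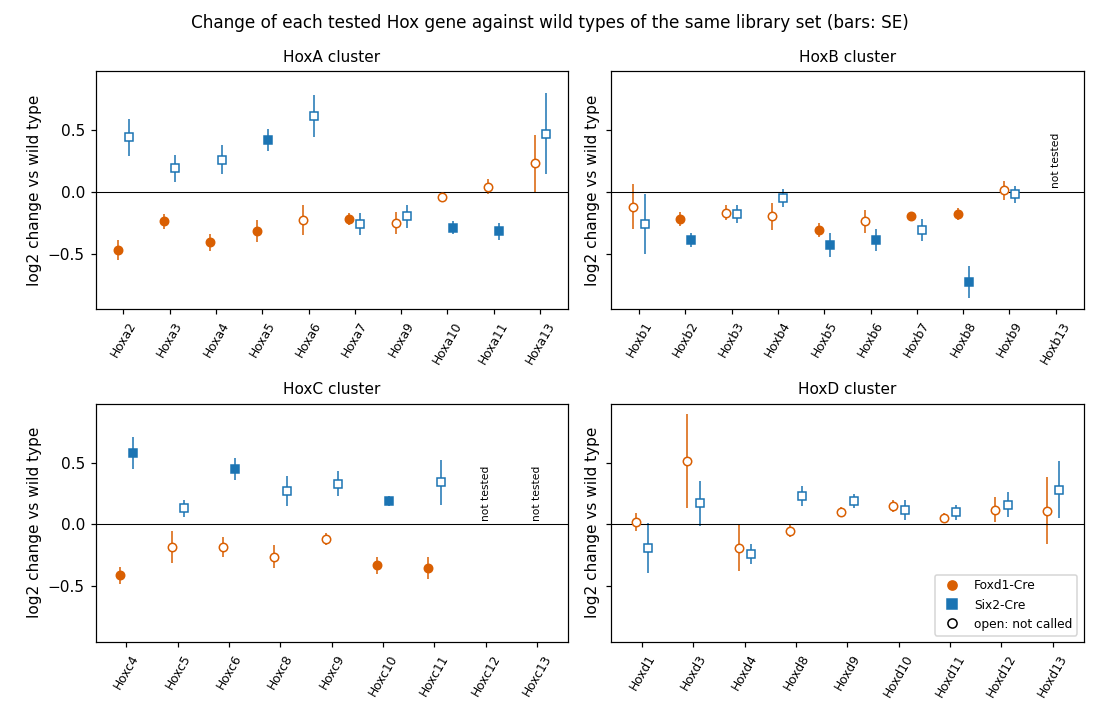
Change of each Hox gene on the log2(FPKM + 1) scale against wild types of the same library set, by cluster and paralog group, with bars for the standard error; circles are Foxd1-Cre (n = 5 against 6), squares Six2-Cre (n = 3 against 3), and filled symbols passed an adjusted p of 0.05 in limma. Under Foxd1-Cre all 7 tested HoxC genes lie below 0, and under Six2-Cre all 7 lie above.

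The difference between the mutants was tested directly, as the change under Foxd1-Cre minus that under Six2-Cre, for 13810 genes. It was negative for 9 Hox genes, 25.7% of those tested, beside 5.24% of all genes, and positive for 3 (8.57%), beside 5.76% of all genes (adjusted p under 0.05, from the 2 limma fits). On simulated data this test of the difference made more false calls than the threshold allows. The 9 were all in the 3' part of HoxA (Hoxa2, Hoxa4, Hoxa5 and Hoxa6) or in HoxC (Hoxc4, Hoxc6, Hoxc8, Hoxc9 and Hoxc10), and the 3 were Hoxb8, Hoxa10 and Hoxa11. Hoxc4 had the largest difference at -0.99 ± 0.14 (adjusted p = 0.0015, limma). Hoxa2 followed with -0.91 ± 0.17, Hoxa6 with -0.84 ± 0.21, Hoxa5 with -0.74 ± 0.13 and Hoxa4 with -0.67 ± 0.14 (adjusted p = 0.00592, 0.0224, 0.00105 and 0.0118, limma). Of these, Hoxa6 was at 9.19, 9.87, 10.1, 10.8 and 12.02 FPKM in Foxd1-Cre against 9.69 to 18.1 (median 12.02) FPKM, and Hoxa4 at 4.22, 5.44 and 5.62 FPKM in Six2-Cre against 4.02, 3.70 and 4.50 FPKM, and in both cases the groups overlapped. In HoxC the differences were -0.63 ± 0.12 for Hoxc6, -0.53 ± 0.14 for Hoxc8, -0.52 ± 0.08 for Hoxc10 and -0.45 ± 0.11 for Hoxc9 (adjusted p = 0.00193, 0.0307, 2.6e-04 and 0.0314, limma). Hoxc8 and Hoxc9, called in neither mutant alone, had small changes of opposite sign. Hoxc8 was at 3.72, 3.50, 3.65, 4.35 and 3.75 FPKM in Foxd1-Cre against 3.96 to 6.26 (median 4.64) FPKM, and at 9.31, 8.50 and 10.5 FPKM in Six2-Cre against 6.63, 8.55 and 7.89 FPKM. Hoxc9 was at 9.84, 9.85, 10.8, 11.6 and 9.81 against 10.8 to 11.7 (median 11.3) FPKM, and at 13.8, 13.8 and 16.9 against 10.7, 11.5 and 12.52 FPKM, means lower than wild type in Foxd1-Cre and higher in Six2-Cre. The differences of Hoxc4, Hoxa2, Hoxa5, Hoxc6 and Hoxc10 passed with any single library left out. By limma, that of Hoxa6 ended on leaving out library 1 of Six2-Cre, or any of libraries 7 and 9 of the wild types (adjusted p up to 0.0662), that of Hoxa4 on leaving out any of libraries 2 and 3 of Six2-Cre, or library 8 of the wild types (adjusted p up to 0.0566). Those of Hoxc8 and Hoxc9 ended on leaving out any of libraries 1 and 3 of Six2-Cre, or any of libraries 7 and 9 of the wild types (adjusted p up to 0.101) and on leaving out any of libraries 1, 2 and 3 of Six2-Cre, or any of libraries 7 and 8 of the wild types (adjusted p up to 0.0972), by limma.

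Of the genes in which Foxd1-Cre gave the higher value, Hoxb8 fell under both mutants and by 0.55 more under Six2-Cre (difference 0.55 ± 0.13, limma, adjusted p = 0.0355). Hoxa10 and Hoxa11 were called only under Six2-Cre, and their differences were 0.24 ± 0.06 and 0.36 ± 0.09 (limma, adjusted p = 0.0265 and 0.0211). By limma, the Hoxb8 difference ended on leaving out library 1 of Foxd1-Cre, or any of libraries 1, 2 and 3 of Six2-Cre, or any of libraries 7 and 8 of the wild types (adjusted p up to 0.116). That of Hoxa10 ended on leaving out any of libraries 2 and 3 of Six2-Cre, or any of libraries 7 and 8 of the wild types (adjusted p up to 0.0829) and with no variance trend (adjusted p = 0.0581), and that of Hoxa11 on leaving out any of libraries 1 and 3 of Six2-Cre, or any of libraries 7 and 8 of the wild types (adjusted p up to 0.0762), by limma. Hoxa5, Hoxc4 and Hoxc10 fell under Foxd1-Cre and rose under Six2-Cre, a combination seen in 0.442% of all genes tested, and 0 members did the reverse, which 0.224% of all genes did. Hoxb2, Hoxb5 and Hoxb8 fell under both, as did 1.09% of all genes, and for Hoxb2 and Hoxb5 the difference did not pass (0.17 ± 0.09 and 0.12 ± 0.12, limma, adjusted p = 0.243 and 0.592). For Hoxa3 and Hoxc11, both called only under Foxd1-Cre, the differences of -0.42 ± 0.13 and -0.70 ± 0.20 missed the threshold (limma, adjusted p = 0.0648 and 0.0515). Both passed in a joint fit with equal variance (adjusted p = 0.0276 and 0.0168). That of Hoxc11 also passed with the filter set within each library set (limma, adjusted p = 0.0459) and on leaving out Foxd1-Cre replicate 2 or wild-type replicate 3, 5 or 9 (adjusted p = 0.0131 to 0.0455). That of Hoxa3 passed without wild-type replicate 8 (limma, adjusted p = 0.0283). It also passed with all 9 wild types as controls (limma, adjusted p = 0.0497), where the shared wild types cancel from the difference. That setting compares Foxd1-Cre with Six2-Cre directly, across library sets of unlike depth, and so is not a test of the difference of effects. HoxD differences ran from -0.28 ± 0.10 (Hoxd8) to 0.34 ± 0.42 (Hoxd3), with 0 of 9 called.

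**Figure D3:**
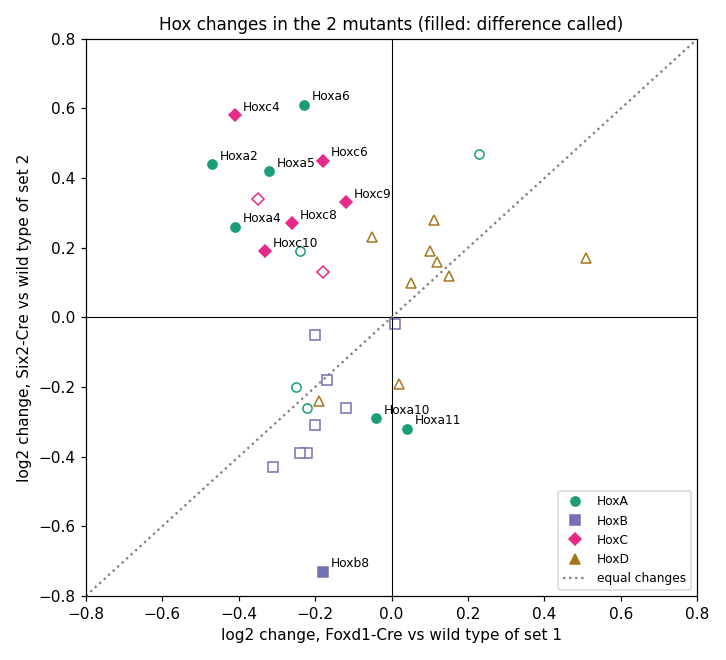
Log2 change of the 35 tested Hox genes under Foxd1-Cre (horizontal) and under Six2-Cre (vertical), coloured by cluster, with filled symbols where the difference of the 2 changes passed an adjusted p of 0.05 and a dotted line for equal changes. The 9 genes lower under Foxd1-Cre sit in the upper left, and Hoxb8, Hoxa10 and Hoxa11 lie below the line.

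**Figure D4:**
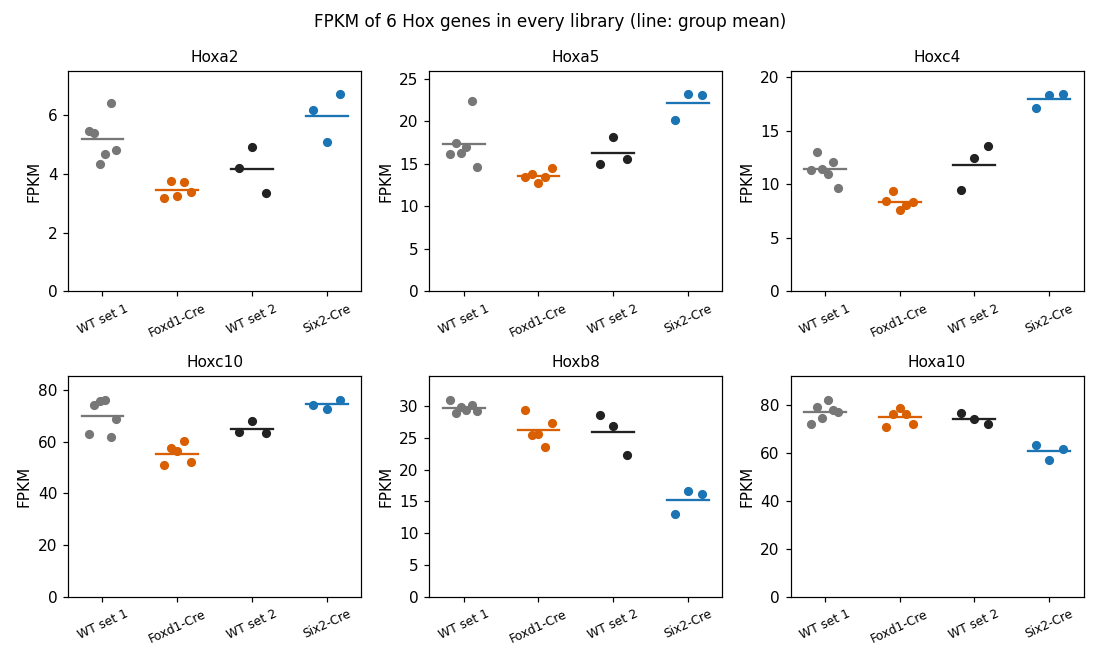
FPKM of Hoxa2, Hoxa5, Hoxc4, Hoxc10, Hoxb8 and Hoxa10 in each library, by group, with a line at the group mean. In Hoxc4 the Foxd1-Cre points sit between 7.56 and 9.35 FPKM, below their wild types, and the Six2-Cre points between 17.1 and 18.4 FPKM, above theirs.

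Read by paralog group, 10 of the 12 calls under Foxd1-Cre lay in groups 2 to 8, which hold 20 of the 35 tested members. This range was not planned and follows where the calls lie, so it is descriptive only. The members of 1 group often moved apart under Six2-Cre. Under Foxd1-Cre both group 2 genes and both group 7 genes fell, as did 2 of 4 in group 4 and 2 of 3 in group 5, while 0 of 3 in group 6 and 0 of 4 in group 9 did. In group 10 only Hoxc10 fell, in group 11 only Hoxc11. Under Six2-Cre group 10 held 1 rise (Hoxc10) and 1 fall (Hoxa10), group 5 a rise of Hoxa5 and a fall of Hoxb5, and group 6 a rise of Hoxc6 and a fall of Hoxb6. The summed group 11 level was 90.9 ± 2.91 FPKM in Foxd1-Cre and 90.2 ± 3.77 in its wild types, and 78.6 ± 2.24 in Six2-Cre and 79.8 ± 4.15 in its wild types, the lower Hoxa11 of Six2-Cre being set beside higher means of Hoxc11 and Hoxd11. Over all 38 members the sum was 630.4 ± 6.62 FPKM in Foxd1-Cre against 688 ± 30.3, and 645 ± 20.6 in Six2-Cre against 645 ± 24.9. Every Foxd1-Cre library (up to 641 FPKM) lay below every wild type of set 1 (at least 661 FPKM), and in Six2-Cre the sum did not differ from its wild types beyond the spread. The HoxD share of the sum was 27.4% ± 0.590 in Foxd1-Cre against 24.1% ± 0.495, and 28.7% ± 0.284 in Six2-Cre against 26.5% ± 0.435.

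The partners of Hox proteins moved in opposite directions in the 2 mutants for part of the list. Of 9 tested cofactor genes 4 fell and 0 rose under Foxd1-Cre (median -0.19), and 3 rose and 0 fell under Six2-Cre (median 0.08). For this and the following lists, the shares over all genes tested were 8.45% up and 4.82% down under Foxd1-Cre, and 7.93% up and 5.84% down under Six2-Cre. Meis1, a cofactor that binds DNA beside Hox proteins, was at 42.8, 48.1, 43.2, 38.2 and 37.8 FPKM in Foxd1-Cre against 50.9 to 64.7 FPKM in wild types of set 1, and at 109, 106 and 112 FPKM in Six2-Cre against 83.5, 90.6 and 87.1 FPKM in wild types of set 2. Neither pair of groups overlapped, and Meis1 changed by -0.44 ± 0.08 and 0.32 ± 0.04 (limma, adjusted p = 0.00251 and 0.00771), with a difference of -0.76 ± 0.09 (adjusted p = 2.4e-05). Meis2 fell under Foxd1-Cre (-0.47 ± 0.08, limma, adjusted p = 0.00254) and was not called under Six2-Cre (0.08 ± 0.07), with a difference of -0.55 ± 0.11 (adjusted p = 0.00213). Meis3 fell under Foxd1-Cre (-0.32 ± 0.07) and Pbx3 rose under Six2-Cre (0.26 ± 0.05, limma, adjusted p = 0.0143 and 0.0286).

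**Figure D5:**
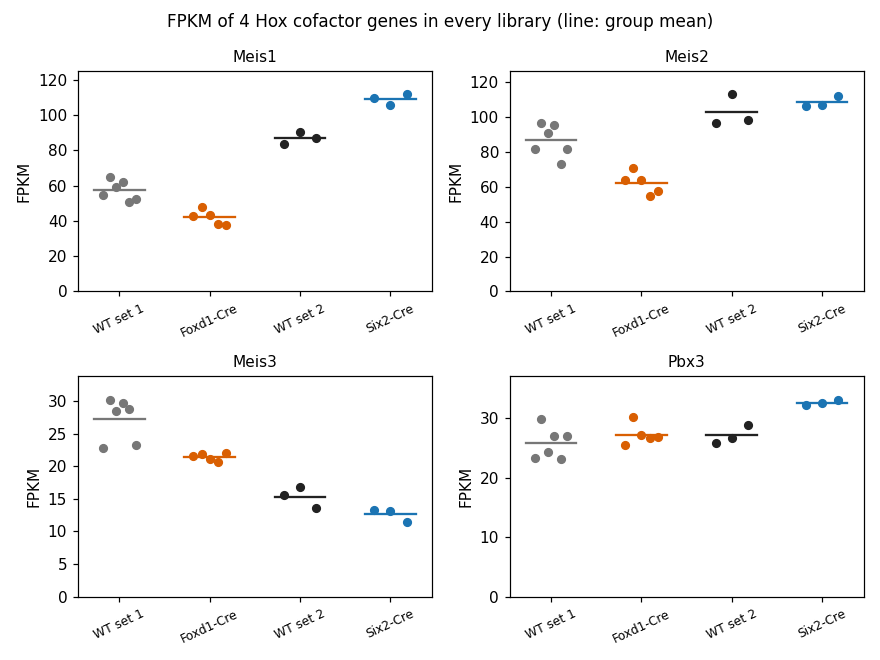
FPKM of the cofactor genes Meis1, Meis2, Meis3 and Pbx3 in each library, by group, with a line at the group mean. Meis1 in Foxd1-Cre sits between 37.8 and 48.1 FPKM, below its wild types, and in Six2-Cre between 105.8 and 112 FPKM, above its wild types.

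Among 10 tested regulators of Hox transcription, 6 rose and 1 fell under Foxd1-Cre, and 4 rose and 1 fell under Six2-Cre. Aldh1a2, which makes retinoic acid in the stroma, fell from 232 ± 12.6 to 82.1 ± 7.36 FPKM under Foxd1-Cre (-1.49 ± 0.06, limma, adjusted p = 1.0e-08), and was at 204 ± 11.1 FPKM under Six2-Cre against 202 ± 16.1 in wild types (0.02 ± 0.07, adjusted p = 0.913). The retinoic acid receptor gene Rarg rose under both (0.77 ± 0.09 and 0.66 ± 0.08, limma, adjusted p = 8.1e-05 and 0.00459). Cdx1, a direct activator of Hox genes in the trunk, rose under both from a level near 0: it was at 1.19, 1.00, 0.969, 0.939 and 0.665 FPKM in Foxd1-Cre against 0.157 to 0.305, and at 1.197, 1.69 and 0.801 FPKM in Six2-Cre against 0.193, 0.205 and 0.108. Its changes were 0.65 ± 0.07 and 0.91 ± 0.18 (limma, adjusted p = 5.9e-05 and 0.0231). Cyp26b1, which degrades retinoic acid, also rose under both (0.25 ± 0.07 and 0.86 ± 0.17, limma, adjusted p = 0.045 and 0.0216), and its difference of -0.62 ± 0.18 did not pass (adjusted p = 0.0659). The difference between the mutants passed for Aldh1a2 (-1.51 ± 0.09, limma, adjusted p = 1.2e-07).

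Of the Polycomb genes, which encode repressors of the clusters, 3 of 20 rose and 1 fell under Foxd1-Cre (8.45% and 4.82% of all genes), and 1 rose and 5 fell under Six2-Cre (7.93% and 5.84% of all genes), where Phf19 fell by 2.11 (limma, adjusted p = 5.4e-04). Jarid2, a Polycomb accessory protein, rose under both mutants (0.27 ± 0.05 and 0.22 ± 0.05, limma, adjusted p = 0.00472 and 0.0493). Rbbp7 fell under Foxd1-Cre (-0.13 ± 0.03), while Rbbp4 (-0.20 ± 0.04) and Pcgf6 (-0.35 ± 0.07) fell under Six2-Cre. Bmi1 rose under Foxd1-Cre (0.16 ± 0.04) and fell under Six2-Cre (-0.28 ± 0.06), with a difference of 0.44 ± 0.07 (limma, adjusted p = 0.00191). Of 14 Trithorax genes, which encode activators, 0 were called under Foxd1-Cre and 1, Dpy30, fell under Six2-Cre (-0.26 ± 0.05, limma, adjusted p = 0.0197). Of 10 partners and targets of the group 11 Hox proteins in the kidney mesenchyme, 3 fell under Foxd1-Cre and 6 under Six2-Cre. Six2, Eya1 and Osr1, which fell under Six2-Cre, are also in the list of nephron progenitor markers, so the 2 lists are not independent. Six2 and Sall1 fell under Foxd1-Cre (-0.27 ± 0.07 and -0.43 ± 0.06, limma, adjusted p = 0.0283 and 4.1e-04), and Six2 and Pax2 under Six2-Cre (-2.10 ± 0.08 and -0.88 ± 0.06, adjusted p = 1.5e-04 and 8.5e-04). Gdnf, the signal for ureteric bud outgrowth, fell under Foxd1-Cre (-0.47 ± 0.08, limma, adjusted p = 0.00254) and was not called under Six2-Cre (-0.12 ± 0.08, adjusted p = 0.407), while Eya1 fell under Six2-Cre (-1.54 ± 0.06, adjusted p = 1.8e-04) and not under Foxd1-Cre (-0.15 ± 0.11, adjusted p = 0.475). The differences were -0.35 ± 0.12 for Gdnf and 1.39 ± 0.13 for Eya1 (limma, adjusted p = 0.0643 and 2.8e-06).

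Of 16 tested noncoding RNAs within the clusters 1 fell under Foxd1-Cre, Hoxaas2 next to Hoxa2 (-0.40 ± 0.11, limma, adjusted p = 0.0393), and of 15 tested under Six2-Cre 0 were called, Hoxaas2 changing by 0.47 ± 0.13 (adjusted p = 0.0586). The Hoxaas2 difference passed (-0.87 ± 0.17, limma, adjusted p = 0.0032). Its level was low, at 0.7685 to 0.911 FPKM in Six2-Cre against 0.233 to 0.372 in wild types of set 2, so these values rest on few reads. In Foxd1-Cre it was at 0.837 to 1.31 FPKM against 1.39 to 2.70. Hoxaas2 also shares 503 exon bases with Hoxa3 on the other strand, so reads of the 2 genes may be mixed. Of 12 tested genes that flank the clusters, 1 fell under Foxd1-Cre (Hibadh, -0.29 ± 0.03, limma, adjusted p = 9.1e-05), and under Six2-Cre 1 rose while Skap1 (-1.39 ± 0.22) and Hibadh (-0.23 ± 0.04) fell. Evx1, a homeobox gene beyond the 5' end of HoxA, rose from 0 in all 3 wild types of set 2 to 1.28, 1.06 and 1.01 FPKM in Six2-Cre (limma, adjusted p = 0.00454), and was at 0.175, 0.170, 0.198, 0.0350 and 0.196 FPKM in Foxd1-Cre.

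Cell type markers moved in the same libraries, and their part in the Hox changes was not tested. Under Foxd1-Cre 4 of 6 cortical stroma markers fell, their sum going from 391.5 to 424 FPKM in the 6 wild types to 142 to 167 FPKM in the 5 mutants, and 5 of 8 nephron progenitor markers fell (374 to 473 FPKM in wild types, 293 to 333 in mutants). Of 6 medullary stroma markers 4 rose and Cdkn1c fell (-0.46 ± 0.05, limma, adjusted p = 1.2e-04), and their sum was 590.9 to 675.9 FPKM in Foxd1-Cre against 631.7 to 757.4. Of 6 committed nephron markers 1 rose and 3 fell in Foxd1-Cre (177.3 to 198 against 184.3 to 252.5 FPKM), and 2 rose and 2 fell in Six2-Cre (169.9 to 174.8 against 196.9 to 227.8 FPKM). Of 5 tested markers of neural crest, neurons and glia 1 rose and 1 fell in Foxd1-Cre (29.87 to 40.75 against 18.39 to 21.9 FPKM), and 3 rose in Six2-Cre (24.68 to 38.57 against 14.88 to 22.99 FPKM). Under Six2-Cre all 8 nephron progenitor markers fell, from 289 to 330.1 FPKM in wild types to 101 to 106 FPKM. In the same mutant 6 of 9 ureteric bud markers fell (153 to 158 FPKM against 197 to 214 in wild types). All 6 endothelial markers rose there (158 to 168 FPKM against 75.4 to 92.6 in wild types). Cortical stroma markers summed to 346.5 to 379 FPKM in Six2-Cre and 355 to 376.5 in its wild types, although within that list Ntn1 fell (-1.52 ± 0.14) and Pdgfra rose (0.42 ± 0.09, limma, adjusted p = 0.00205 and 0.0323). Of markers of neighbouring tissues, hindgut and tail markers summed to 4.32 to 6.495 FPKM in Six2-Cre against 0.386 to 0.988. In Foxd1-Cre they summed to 1.32 to 1.90 FPKM against 0.818 to 1.58. Only 2 of these 6 markers were tested, Fgf17 and Cdx1, and both rose under Six2-Cre. Of those under the filter, Cdx4 was at 0 in all 8 mutant libraries and in the wild types of set 2. Cdx2 was at 0.0838 FPKM or less in the mutants and at 0 in the wild types of set 2. T averaged 0.458 FPKM in Six2-Cre against 0.118, and Tbx6 0.332 against 0.304. Spinal cord markers summed to 2.70 to 3.23 FPKM in Six2-Cre against 0.490 to 0.666. In Foxd1-Cre they summed to 0.735 to 1.75 FPKM against 0.270 to 2.36. Isl1, the only spinal cord marker tested, rose under Six2-Cre (1.17 ± 0.17, limma, adjusted p = 0.00905). It was not called under Foxd1-Cre (0.35 ± 0.24, adjusted p = 0.42). Olig2 was at 0 in all 8 mutant libraries and also in the wild types of set 2. Body wall muscle markers summed to 8.28 to 12.95 FPKM in Six2-Cre against 11.3 to 31.4, and to 10.95 to 14.8 in Foxd1-Cre against 10.6 to 15.1. Limb mesenchyme markers, chiefly Prrx1, summed to 38.2 to 48.6 FPKM in Foxd1-Cre against 19.7 to 25.7, and to 49.7 to 50.5 in Six2-Cre against 23.3 to 32.03. Of 4 tested limb markers 2 rose and 0 fell under Foxd1-Cre. Under Six2-Cre Prrx1 rose (1.27 ± 0.16) and Lmx1b fell (-1.05 ± 0.15, limma, adjusted p = 0.00607 and 0.00822). Gonad and adrenal markers summed to 10.2 to 22.7 FPKM in Foxd1-Cre against 1.88 to 4.06, with Amhr2 at 7.12 to 18.8 FPKM in Foxd1-Cre. Erythroid markers summed to 2892 to 4816 FPKM in Foxd1-Cre against 3595 to 7068, and to 3573 to 4423 in Six2-Cre against 7086 to 8598. Foxd1 itself was at 14.96 to 24.3 FPKM in Foxd1-Cre, and Six2 at 17.7 to 18.2 FPKM in Six2-Cre.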

How the data were processed

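RNA was extracted from whole E12.5 mouse kidneys and sequenced, giving 17 libraries. Per the submitters' processing notes, the software was bcl2fastq 2.17.1.14 and Salmon, the genome build was GRCm38, and the authors deposited 1 table of FPKM values per gene and library. How transcripts were summed to genes, how libraries were scaled and whether strand was used are not given in the sources used here. The table holds no read counts, so depth was estimated from the step of 1 read in genes whose transcripts span 1500 to 4000 bases.

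Groups came from the genotype labels. Mutants were tested within a library set with limma 3.58.1 (R 4.3.3) on log2(FPKM + 1) with a variance trend, two-sided, with Benjamini-Hochberg adjustment over all genes that reached 1 FPKM in 3 or more libraries (14014 genes, less those at 0 throughout a set). A call was an adjusted p under 0.05. The difference between mutants used the effects and errors of both fits with Satterthwaite degrees of freedom. On simulated data the tests within each mutant kept their false calls under the threshold, while the test of the difference exceeded it, and Six2-Cre recovered fewer small changes than Foxd1-Cre. Per-library values and full statistics are given for members called in a comparison (up to the 10 largest changes) and for the 2 highest members of each cluster, and of other gene lists for members called with the 3 smallest p; some of these are not reported here by name. Members, lists and rules were chosen with earlier results of these data known. Gene positions and exon overlaps came from GENCODE mouse release 21 on GRCm38, and promoter windows from RefSeq. Other pseudocounts, filters, scalings and control sets, and leaving out each library, were tried as alternatives.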

Additional observations from a re-analysis of the deposited data

Results flagged for a closer look

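Single libraries stood apart from the rest of their group in 15 of 70 gene and group combinations examined, by the gap to the nearest library relative to the whole range of the group. Chance alone flags about 0.05 of such groups. Wild-type replicate 5 accounted for 9 of the 15, and in each it was the highest of the 6 wild types of set 1: Hoxa4 at 4.438 FPKM, Hoxa5 at 22.38, Hoxa6 at 18.08, Hoxa9 at 28.43, Hoxb4 at 9.275, Hoxb6 at 39.36, Hoxc5 at 6.012, Hoxc8 at 6.257 and Hoxd4 at 22.71 FPKM. Wild-type replicate 1 stood apart for Hoxc6 (9.533 FPKM) and Hoxd3 (2.577 FPKM). Among Foxd1-Cre libraries, replicate 2 stood apart for Hoxa4 (2.72 FPKM) and Hoxb6 (22.1 FPKM), replicate 5 for Hoxa9 (16.91 FPKM) and replicate 4 for Hoxc6 (12.17 FPKM).

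The change under Foxd1-Cre differed from that under Six2-Cre for 12 members by a test of the difference itself (limma effects, adjusted p under 0.05). It was lower under Foxd1-Cre by a log2 difference of -0.99 for Hoxc4, -0.91 for Hoxa2, -0.84 for Hoxa6, -0.74 for Hoxa5, -0.67 for Hoxa4, -0.63 for Hoxc6, -0.53 for Hoxc8, -0.52 for Hoxc10 and -0.45 for Hoxc9. It was higher by 0.55 for Hoxb8, 0.36 for Hoxa11 and 0.24 for Hoxa10.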

How the results depend on the processing

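In 692 refits of called changes under another setting or without 1 library, 0 had the opposite sign, but calls were often lost. These refits reuse most of the same libraries, and another filter or variance trend leaves the log2 change itself as it was. A reversal was therefore unlikely from the start, and the kept signs say little about how firm the changes are. Leaving out 1 library at a time, the count that fell under Foxd1-Cre ranged from 8 to 13 (12 with all libraries) and the count that rose from 0 to 1, the 1 being Hoxd10 without wild-type replicate 5. Under Six2-Cre the count that rose ranged from 0 to 2 (4 with all libraries; 0 without Six2-Cre replicate 3, 1 without Six2-Cre replicate 1, Six2-Cre replicate 2 or wild-type replicate 7) and the count that fell from 0 to 5 (6 with all; 0 without wild-type replicate 8, 1 without Six2-Cre replicate 3, 3 without Six2-Cre replicate 1 or wild-type replicate 7). The difference was lower under Foxd1-Cre for 6 to 10 members (9 with all) and higher for 0 to 3 (3 with all; 0 without Six2-Cre replicate 3 or wild-type replicate 7 or 8, 1 without Six2-Cre replicate 1 or 2). Of the calls, 7 of 12 under Foxd1-Cre, 0 of 10 under Six2-Cre and 5 of 12 differences passed in every such fit.

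Rescaling to the same total, or without erythroid genes, gave 1 rise and 10 falls under Foxd1-Cre, and over all genes 1262 higher and 411 lower, or 1209 and 412, against 1182 and 674 as deposited. With all 9 wild types as controls, which mixes the library sets, 6 members fell under Foxd1-Cre. The calls of Hoxa3, Hoxa7, Hoxb2, Hoxb7, Hoxb8 and Hoxc11 were lost there. In the same fit 10 members rose and 12 fell under Six2-Cre. The difference was then higher for 12 and lower for 14, and its median over all genes moved to 0.121 from 0.013. In that fit the shared wild types cancel from the difference, which compares the mutants directly across the library sets. A joint fit with equal variance gave 11 lower differences. The cause of these changes was not tested. The other pseudocount and filters kept each count within 1.5 times its value.

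No clear pairing by replicate number was seen. Foxd1-Cre and wild-type libraries of the same number had correlations of 0.022 to 0.099 in their deviations from the group means, and none correlated best with its own number. These correlations were small but all positive, so the check cannot exclude a weak pairing. With the number as a replicate block 8 members fell under Foxd1-Cre, and the calls of Hoxa3, Hoxa7, Hoxb2 and Hoxc11 were lost. No paired analysis was possible for Six2-Cre because it shares no number with wild types 7 to 9. In set 2, where 1 read at 1 kb was worth 0.1702 to 0.1894 FPKM, genes under 1 FPKM rest on few reads.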
